A study of Homo sapiens with 9 samples.

Results

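This account compares gene expression in MCF10Ca1a cells, a tumour-forming human breast line, with that in MCF10AT1 cells, the premalignant line of the same lineage, across all genes measured. The members are the 6 libraries of these lines, 3 per line, out of 9 in the series, which also holds 3 libraries of the parental line MCF10A. The deposited gene table lists 62666 genes, and the 16728 with 10 or more counts in at least 3 of the 6 libraries were tested. Among these, 1066 genes reached 10 counts only in MCF10AT1 libraries and 412 only in MCF10Ca1a libraries. Such genes passed the filter through 1 line and are part of the totals below. MCF10A cells come from benign breast epithelium and form no tumours, MCF10AT1 carries activated HRAS on that background, and MCF10Ca1a grows as a carcinoma in mice. Both lines were kept in DMEM/F12 medium with horse serum, sodium bicarbonate, insulin, glutamine, EGF, hydrocortisone and cholera toxin, but serum was 2.5% for MCF10AT1 and 5% for MCF10Ca1a, as for MCF10A. Serum and line therefore cannot be told apart in any result here. Total RNA was purified on columns, polyadenylated RNA was enriched, and stranded Illumina libraries were made. The labels do not say whether replicates were separate cultures, so p-values measure only the spread between these libraries, and each line stands for 1 cell population.

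Mammary epithelium has an inner luminal layer, marked by keratins 8, 18 and 19, and an outer basal layer, marked by keratins 5 and 14 and by p63. Epithelial cells hold together through E-cadherin junctions, tight junctions and desmosomes, and sit on a laminin matrix through integrins and hemidesmosomes. RAS signals through the MAP kinase cascade to immediate early genes, cyclins and growth factor genes, and cancer progression is commonly followed through the cell cycle, adhesion, matrix, stress and immune genes described here.

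Library totals were 62.9M to 68.1M counts in MCF10AT1 and 32.9M to 35.2M in MCF10Ca1a, so genes near the detection limit were measured with fewer counts in the malignant line. No replicate libraries held identical values. Counts of replicates differed by more than sampling noise, with chi-square values of 2.34 to 17.1 per degree of freedom, and the pairs that included MCF10AT1 replicate 3 gave the highest values, 14.7 and 17.1. The 7 mammary epithelial markers were read in every library, and their summed level in TPM, which is scaled by depth and transcript length, was 2650 to 3020 in MCF10AT1 and 2190 to 2270 in MCF10Ca1a. Of these, EPCAM, an epithelial adhesion protein, averaged 170 TPM in MCF10AT1 and 390 TPM in MCF10Ca1a, TP63, which encodes p63, averaged 16.2 and 31.1 TPM, and KRT5, a basal keratin, averaged 1630 and 420 TPM. Of the markers of other cell types, CD3E, CLDN5, LEP and CNN1 had 0 counts in every library, and PTPRC, VWF and CDH5 had at most 2. The myoepithelial markers ACTA2, OXTR and MYLK were read in MCF10AT1, at 5.57, 0.631 and 0.438 TPM, and were lower in MCF10Ca1a, at 2.6, 0.385 and 0.268 TPM. The fall of MYLK was larger on the count scale, by 2.64 on the log2 scale. Single markers of such types did differ. CD68, PECAM1 and PLIN1 were higher in MCF10Ca1a by log2 changes of 3.40, 3.71 and 5.38, and DCN and CD14 changed by -7.43 and -4.34. In MCF10Ca1a, CD68, PECAM1 and PLIN1 averaged 31.1, 18.7 and 6.53 TPM, most of the immune, endothelial and adipocyte sums below. The endothelial marker KDR went the other way, with counts of 32, 23 and 25 (MCF10AT1) and of 0, 0 and 1 (MCF10Ca1a). TEK, also endothelial, averaged 0.0437 TPM in MCF10AT1 and 0.0257 TPM in MCF10Ca1a. The summed level of the 8 immune markers was 6.11 to 6.72 TPM in MCF10AT1 and 30.6 to 33.5 TPM in MCF10Ca1a, that of the 6 endothelial markers 0.934 to 1.36 and 15.7 to 20.8 TPM, and that of the 8 fibroblast markers 27.7 to 31.5 and 1.94 to 2.33 TPM. The 5 myoepithelial markers summed to 6.13 to 6.94 and 2.91 to 3.79 TPM, and the 4 adipocyte markers to 0.202 to 0.358 and 6.66 to 7.68 TPM. The part of any such cells in the results was not tested. HRAS, the gene used to make MCF10AT1, was read at 97.7, 98.2 and 93.4 CPM in MCF10AT1 and 147, 143 and 150.1 CPM in MCF10Ca1a. It was higher in MCF10Ca1a by a log2 change of 0.61 (SE 0.036), and gene counts do not separate the introduced copy from the cell's own.

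Expression differed widely between the lines. Levels are given as CPM, counts scaled to a common library size with trimmed-mean factors, in the order of the replicates, and changes as the fitted log2 difference of MCF10Ca1a minus MCF10AT1, where 1 is a doubling. A gene is said to rise or fall only where the p of edgeR's quasi-likelihood test, adjusted by Benjamini and Hochberg's method across the tested genes, was under 0.05. Where a member of a gene list is said to rise or fall most, the measure is the ratio of mean CPM with each library raised to at least 3 counts. Genes printed with the position of the gene were picked by a rule, and the others, apart from HRAS but including the genes whose promoters are shown, other than PLK1 and ISG15, after their values were seen. By that test 13922 genes (83.2%) differed, 6850 (40.9%) higher and 7072 (42.3%) lower in MCF10Ca1a. At least 2-fold changes were called for 3007 genes higher (18.0%) and 3221 lower (19.3%), and at least 8-fold changes for 559 and 649. That near balance held with edgeR on the deposited scaled counts (3025 higher and 3119 lower) and length-scaled counts (3017 and 3167). It did not hold with limma on TPM. The at least 2-fold calls were then 2452 higher and 1310 lower on log2(TPM + 1), and 3718 and 2191 on log2(TPM + 0.1). The limma fits change the test and the scale together, and the part of each was not tested. The median log2 change over all genes tested was -0.03. These shares are the background against which each gene group below is read. On log2(TPM + 1) the median was 0.15 and 60.6% of called genes were higher, against 49.2% on the count scale, so small changes are read relative to that shift. For some genes named in the text and above the floor of 3 counts in both lines, the ratio of mean TPM differed by over 1.5 times from that of mean CPM. These were ANXA6, COL6A3, DCN, EPHB6, EPSTI1, GDA, HES2, INPP5D, KRT15, LEF1, MMP2, MYLK, NRG1, PLIN1, SLC1A4, SPARC, TRIM22 and ZEB1, each with the direction kept.

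**Figure D1:**
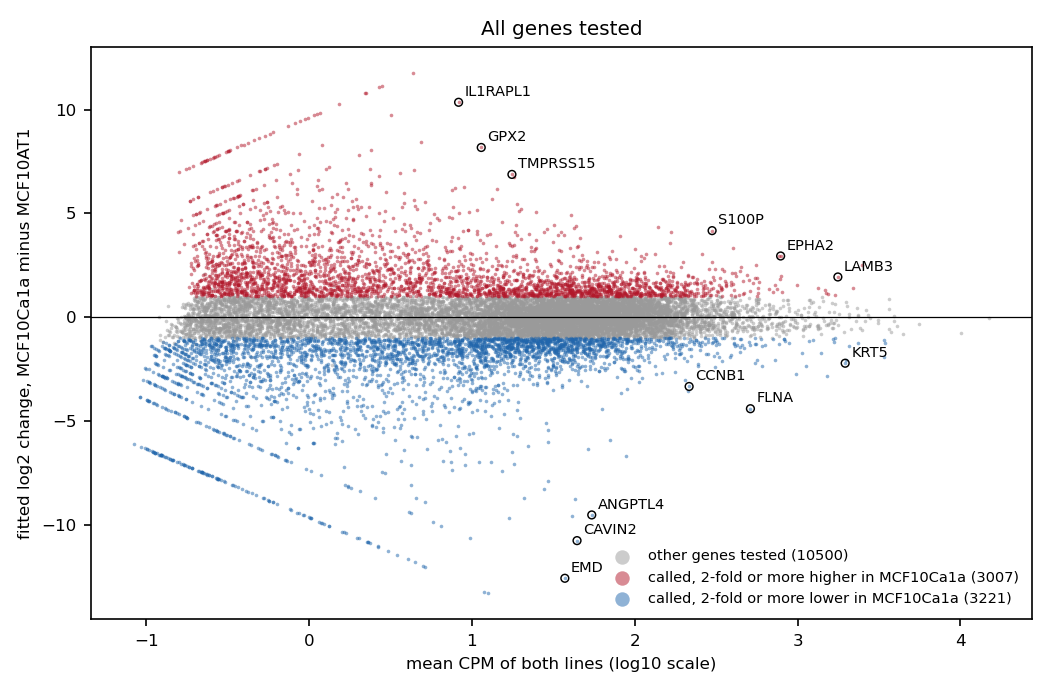
Fitted log2 change of MCF10Ca1a minus MCF10AT1 (vertical axis) against the mean CPM of both lines (horizontal axis, log10 scale) for the 16728 genes tested, each point a gene. Red points are the 3007 genes called at least 2-fold higher in MCF10Ca1a, blue points the 3221 called at least 2-fold lower, and circled genes are described in the text. The slanted rows of points at the left are genes with 0 or a few counts in 1 line, whose fitted change depends on the prior count.

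The change also followed transcript length. When tested genes were split into 5 equal groups by the effective length implied by the deposited counts and TPM, the median log2 change was -0.23 in the shortest group and 0.28 in the longest. Genes called at least 2-fold higher made up 17.3% of the shortest and 22.5% of the longest group, and genes called at least 2-fold lower 21.9% and 15.7%. List medians centred within these groups are given for lists described by their median where centring moved it by over 1.5 times or changed its sign, and the part of RNA quality or library preparation in the trend was not tested.

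**Figure D2:**
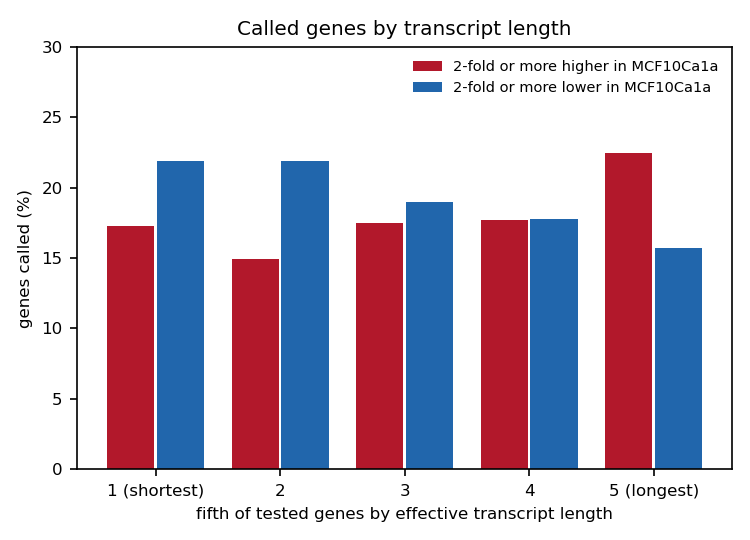
Percent of tested genes called at least 2-fold higher (red) or lower (blue) in MCF10Ca1a, in 5 equal groups by effective transcript length. The higher calls go from 17.3% in the shortest to 22.5% in the longest group, and the lower calls from 21.9% to 15.7%.

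The genes with the largest falls were well expressed in MCF10AT1 and almost unread in MCF10Ca1a. CAVIN2 (chr2:191834302-191847255, minus strand), a caveola coat protein, had counts of 6148, 6058 and 5269 (MCF10AT1) and of 1, 3 and 1 (MCF10Ca1a), at least 1019-fold lower when each library is raised to a floor of 3 counts. EMD (chrX:154379197-154381523, plus strand), which encodes the inner nuclear membrane protein emerin, had counts of 5047, 5035 and 4620 (MCF10AT1) and of 0, 1 and 0 (MCF10Ca1a), at least 858-fold lower. The counts of both genes in the 3 MCF10Ca1a libraries were at most 3, and no library of one line overlapped the other. IGFBP7 (chr4:57030773-57110385, minus strand), a secreted binder of insulin-like growth factors, had counts of 2290, 2371 and 1976 (MCF10AT1) and of 3, 1 and 0 (MCF10Ca1a) and was at least 387-fold lower. INPP5D (chr2:233059967-233207903, plus strand), a lipid phosphatase best known from blood cells, fell from 82.0, 83.1 and 82.6 CPM in MCF10AT1 to 0.141, 0.0901 and 0.0854 CPM in MCF10Ca1a. ANGPTL4 (chr19:8363289-8374373, plus strand), a secreted lipoprotein lipase inhibitor, was read at 111, 112 and 103 CPM in MCF10AT1 and 0.113, 0.120 and 0.199 CPM in MCF10Ca1a. These genes were expressed in all 3 MCF10AT1 libraries at similar levels. GDA, ALOX15B and TRIM22, which encode guanine deaminase, a lipoxygenase and an antiviral tripartite motif protein, changed by -8.77, -8.72 and -8.30 on the log2 scale. Their positions are chr9:72114595-72257193, plus strand, chr17:8039017-8049134, plus strand and chr11:5689689-5737089, plus strand.

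The largest rises were of genes nearly absent from MCF10AT1. IL1RAPL1 (chrX:28587399-29956723, plus strand), an interleukin-1 receptor accessory protein of neurons, had counts of 1, 1 and 0 (MCF10AT1) and of 593, 545 and 582 (MCF10Ca1a), at least 363-fold higher. GPX2 (chr14:64939152-64942905, minus strand), the gastrointestinal glutathione peroxidase, had counts of 5, 2 and 8 (MCF10AT1) and of 754, 730 and 879 (MCF10Ca1a), a ratio of mean CPM of 277 with a floor of 3 counts. TENM1 (chrX:124375903-124963817, minus strand), a teneurin adhesion protein, had counts of 1, 3 and 1 (MCF10AT1) and of 375, 333 and 298 (MCF10Ca1a), at least 212-fold higher. Each of these was at most 8 counts in any MCF10AT1 library and at least 298 in every MCF10Ca1a library. TMPRSS15 (chr21:18269116-18485879, minus strand), the intestinal protease enteropeptidase, was read at 0.281, 0.342 and 0.255 CPM in MCF10AT1 and 34.6, 35.4 and 34.7 CPM in MCF10Ca1a. PKNOX2 (chr11:125164687-125433389, plus strand), a homeodomain factor, and PLA2G4C (chr19:48047843-48110817, minus strand), a cytosolic phospholipase A2, also rose, by 7.11 and 6.95. The noncoding RNA NRAD1 (chr13:43908669-44030461, plus strand) had counts of 1, 0 and 0 (MCF10AT1) and of 241, 193 and 232 (MCF10Ca1a), a ratio of mean CPM of 140.3 with the floor of 3 counts. FAM133A (chrX:93674013-93712274, plus strand) had counts of 0, 0 and 0 (MCF10AT1) and of 197, 190 and 199 (MCF10Ca1a), at least 124-fold higher.

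Genes that run mitosis fell together in MCF10Ca1a. All 32 tested members of the mitosis and spindle list were called lower and 30 were at least 2-fold lower, with a median log2 change of -1.99 against -0.03 over all genes tested. Many promoters of such genes carry CCAAT boxes and a CHR element (TTTGAA), the sites bound by NF-Y and by the DREAM and MuvB complexes. In RefSeq promoters of GRCh38.p14 (250 bases before to 50 after the start, both strands), CCAAT was found in 21 of the 27 list promoters matched (77.8%) against 35.7% of all 27305 promoters and 36.8% of the 11480 promoters of tested genes. TTTGAA was found in 20 of 27 (74.1%) against 15.4% and 10.1%, and the motifs share no letters where both are marked below. The 150 bases before the start of CCNB2 (chr15:59104996-59105145, plus strand), CDC20 (chr1:43358831-43358980, plus strand) and PLK1 (chr16:23678739-23678888, plus strand) are shown because these genes are among the mitotic regulators that fell and carry both motifs, which are in capitals.
CCNB2: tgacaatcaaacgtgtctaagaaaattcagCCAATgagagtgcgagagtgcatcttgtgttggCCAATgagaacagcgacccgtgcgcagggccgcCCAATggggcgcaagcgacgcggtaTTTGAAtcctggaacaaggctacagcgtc
CDC20: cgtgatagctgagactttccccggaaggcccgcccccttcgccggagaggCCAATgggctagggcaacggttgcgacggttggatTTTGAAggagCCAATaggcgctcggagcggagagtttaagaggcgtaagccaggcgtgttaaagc
PLK1: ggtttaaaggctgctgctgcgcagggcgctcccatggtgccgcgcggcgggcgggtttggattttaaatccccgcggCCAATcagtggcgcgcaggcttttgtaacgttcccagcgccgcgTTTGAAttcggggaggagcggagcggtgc
A match describes these letters only and is no site or cause.

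CCNB1 (chr5:69167010-69178245, plus strand), the B-type cyclin that drives entry into mitosis, was read at 397, 401 and 379.9 CPM in MCF10AT1 and 38.2, 38.8 and 39.3 CPM in MCF10Ca1a. It fell by 3.34 (SE 0.040), with an adjusted p of 1.31e-14 by edgeR's quasi-likelihood test, the steepest fall of the list. PLK1 (chr16:23677656-23690367, plus strand), a mitotic kinase, was read at 142, 139.7 and 132 CPM in MCF10AT1 and 18.3, 17 and 20.3 CPM in MCF10Ca1a. The libraries of the lines did not overlap for either gene. CCNB2, another B-type cyclin, changed by -2.59, CDK1, the kinase that B-type cyclins activate, by -1.76, and CDC20, the activator of the anaphase-promoting complex, by -1.5. KIF20A, a kinesin of cytokinesis, changed by -2.61, the aurora kinases AURKA and AURKB by -2.00 and -2.08, and TPX2, which activates AURKA, by -0.98, the smallest fall of the list. In bulk samples, fewer dividing cells and less RNA of these genes per cell cannot be told apart.

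DNA replication genes were lower too. Of 35 members tested, 33 were called lower and 21 at least 2-fold lower, with a median of -1.13, and no member was called higher. PCNA (chr20:5114953-5126626, minus strand), the sliding clamp of DNA polymerases, was read at 309, 324 and 329.9 CPM in MCF10AT1 and 79.2, 83.2 and 82.8 CPM in MCF10Ca1a, a change of -1.97 (SE 0.039). UHRF1 (chr19:4903080-4962154, plus strand), which guides maintenance DNA methylation to new strands, fell most, with a change of -2.62, and TYMS, thymidylate synthase, changed by -2.56. Members of the MCM helicase fell by very different amounts, from -1.94 for MCM5 to -0.42 for MCM2 (chr3:127598223-127622436, plus strand). CDT1, a licensing factor, and RPA2, a single-strand binder, did not pass the test, with changes of -0.089 and -0.024. The E2F-type letters TTTGGCGC were found in 6 and TTTCCCGC in 10 of the 31 promoters matched (19.4% and 32.3%), against 0.659% and 1.66% of all promoters and 1.02% and 2.63% of those of tested genes.

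Regulators of the G1 phase were mostly lower, with exceptions among the inhibitors. Of 18 tested, 13 fell, 3 rose and 2 were not called, with a median of -0.82. CCND1 (chr11:69641087-69654474, plus strand), cyclin D1, was read at 301, 301 and 308 CPM in MCF10AT1 and 172, 173 and 175 CPM in MCF10Ca1a. CDKN1A (chr6:36676460-36687339, plus strand), the p21 inhibitor of CDKs, was lower, with a change of -1.32, from 360.0, 362 and 345 CPM in MCF10AT1 to 143, 139.7 and 145 CPM in MCF10Ca1a. CDKN2C (chr1:50960745-50974633, plus strand), the INK4 inhibitor p18, fell most, with a change of -2.88, while CDKN1C (chr11:2883213-2885773, minus strand), the p57 inhibitor, rose most, by 2.23, at low levels of 0.429, 0.312 and 0.319 CPM in MCF10AT1 and 1.58, 1.83 and 1.60 CPM in MCF10Ca1a. CDKN2A and CDKN2B, the INK4 inhibitors p16 and p15, did not reach the count minimum.

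Homologous recombination and Fanconi genes, which repair double-strand breaks and crosslinks, followed the replication genes. Of 23 tested, 20 fell, 13 by at least 2-fold, and 2 rose, with a median of -1.06. FANCD2 (chr3:10026414-10101930, plus strand), which is ubiquitinated in the Fanconi pathway, was read at 53.7, 50.8 and 48.0 CPM in MCF10AT1 and 18.6, 19.2 and 17.2 CPM in MCF10Ca1a, a change of -1.47. DMC1 (chr22:38518949-38570286, minus strand), the meiotic recombinase, was at most 0.624 CPM in any library. FANCL and EME1 were the members that rose, by 0.16 and 0.25.

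Genes of cohesin and condensin, the ring complexes that hold and fold chromosomes, were mostly lower, and each condensin subunit tested fell. Of 25 tested, 17 fell and 6 rose, with a median of -0.47. NCAPH (chr2:96335787-96373845, plus strand), a condensin I subunit, fell by 2.03, from 52.5, 49.3 and 46.3 CPM in MCF10AT1 to 12.2, 12.4 and 11.8 CPM in MCF10Ca1a. RAD21 (chr8:116845935-116874866, minus strand), the cohesin kleisin, was read at 395, 399.9 and 362 CPM in MCF10AT1 and 155, 155 and 159 CPM in MCF10Ca1a, a change of -1.30. CTCF (chr16:67562407-67639185, plus strand), the boundary factor, did not pass the test at 56.1, 55.9 and 52.1 CPM in MCF10AT1 and 54.6, 54.1 and 55.0 CPM in MCF10Ca1a, whose ranges overlap. NIPBL, the cohesin loader, rose by 1.21, and ZNF143 (chr11:9460319-9528524, plus strand), a promoter-binding zinc finger protein, rose most, by 1.52.

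Nuclear envelope genes were mostly lower, EMD among them. Of 22 tested, 15 fell and 5 rose, with a median of -0.61. LMNB1 (chr5:126776623-126837020, plus strand), lamin B1, was read at 142, 139.9 and 142 CPM in MCF10AT1 and 25.4, 25.2 and 25.7 CPM in MCF10Ca1a, a change of -2.47 (SE 0.036). LMNA (chr1:156082573-156140089, plus strand), lamins A and C, was lower, with a change of -0.45, and this call was lost on the TPM scale. SYNE4 and SYNE3, nesprins that tie the nucleus to the cytoskeleton, changed by -4.10 and -2.99, and TOR1AIP2 (chr1:179839967-179877803, minus strand), a torsin cofactor, rose most, by 1.5.

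**Figure D3:**
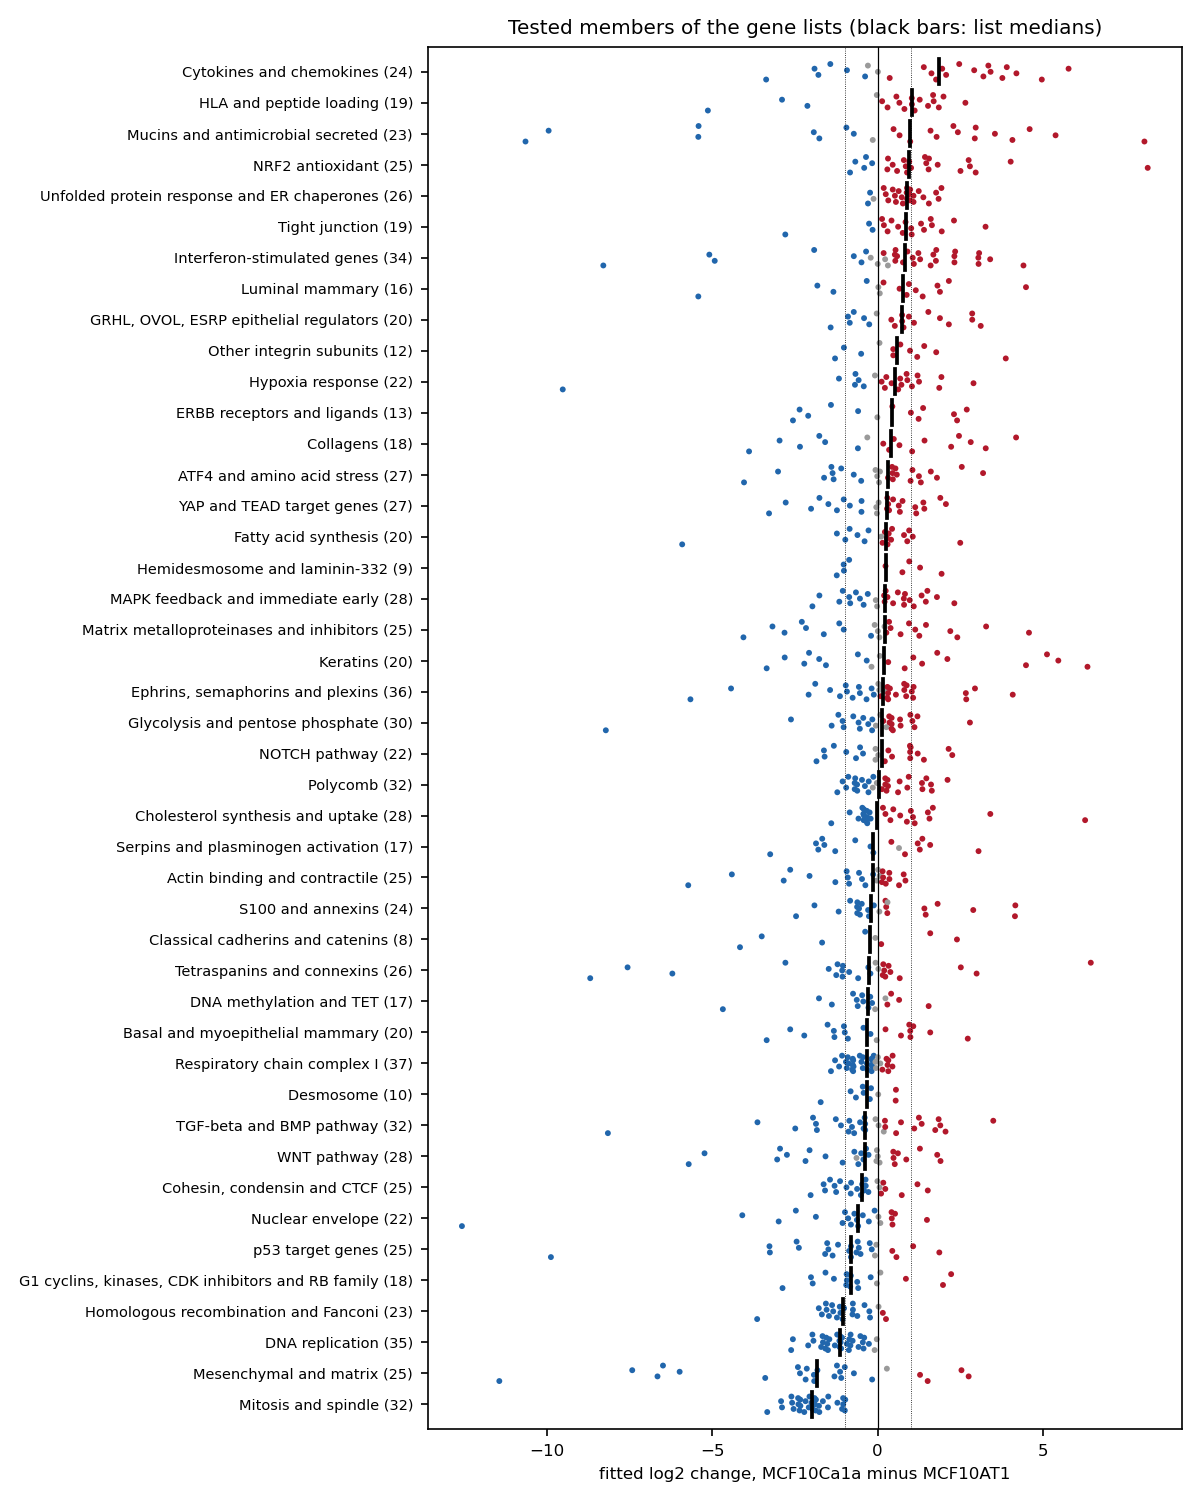
Fitted log2 change of MCF10Ca1a minus MCF10AT1 for the tested members of 44 gene lists, ordered by their median (black bars); the number tested is in parentheses. Red and blue points were called higher and lower, grey points were not called, and dotted lines mark 2-fold changes. Cytokines lie highest, with a median of 1.86, and mitosis lowest, with -1.99.

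Keratins, the intermediate filaments of epithelium, changed in both directions. Of 20 tested, 10 rose and 8 fell, 8 and 6 of them at least 2-fold, with a median of 0.19. KRT5 (chr12:52514575-52520687, minus strand), the basal keratin, was read at 3392, 3263 and 3023 CPM in MCF10AT1 and 679.5, 682 and 717 CPM in MCF10Ca1a, a change of -2.22 (SE 0.048). KRT14 (chr17:41582279-41586921, minus strand), its basal partner, fell by 3.36, from 65.3, 66.9 and 62.3 CPM in MCF10AT1 to 6.20, 5.92 and 6.84 CPM in MCF10Ca1a. Both were lower in every MCF10Ca1a library than in any MCF10AT1 library. KRT15 (chr17:41513743-41522529, minus strand), a further basal keratin, moved the other way and rose by 0.82, from 329, 329 and 303 CPM in MCF10AT1 to 577, 568 and 554 CPM in MCF10Ca1a. Its mean levels were 208 TPM in MCF10AT1 and 600 TPM in MCF10Ca1a. KRT6A, a keratin of activated epidermis, fell by 2.81, while KRT16 and KRT17, of the same state, rose by 2.11 and 1.08. KRT13 (chr17:41500981-41505705, minus strand), a keratin of mucosal epithelium, rose most, from 0.0296, 0.0892 and 0.0479 CPM in MCF10AT1 to 4.68, 4.51 and 5.10 CPM in MCF10Ca1a. KRT19 (chr17:41523617-41528308, minus strand), a luminal keratin, rose by 4.49, and KRT23 by 5.13. KRT8, a luminal keratin, fell by 0.33, and its partner KRT18 did not pass the test, with a change of 0.067. Mean levels in MCF10AT1 and MCF10Ca1a were 449 and 442 TPM for KRT8, and 554 and 693 TPM for KRT18. Reads of the near-identical copies KRT6A, KRT6B and KRT6C, and of KRT81, KRT83 and KRT86, may have been divided between them, so their values are uncertain.

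Cell junctions were not shifted as a group. Tight junction genes were mostly higher, with 16 of 19 called higher, 9 at least 2-fold, and a median of 0.85. CLDN1 (chr3:190305701-190322475, minus strand), a sealing claudin, was read at 55.3, 55.7 and 51.9 CPM in MCF10AT1 and 176, 172 and 162 CPM in MCF10Ca1a. TJP1 (chr15:29699367-29968865, minus strand), the scaffold ZO-1, rose by 0.42, CLDN4, another sealing claudin, by 1.41, and occludin (OCLN) by 1.03. PARD6A (chr16:67660946-67662778, plus strand), a polarity scaffold, rose most, from 0.577, 0.431 and 0.575 CPM in MCF10AT1 to 4.79, 4.93 and 5.58 CPM in MCF10Ca1a, and CLDN23 (chr8:8701938-8704106, plus strand) fell, from 0.606, 0.907 and 0.734 CPM in MCF10AT1 to 0.0564, 0.120 and 0.142 CPM in MCF10Ca1a. Desmosome genes, which fasten keratins to the membrane, moved little: of 10 tested, 7 fell and 2 rose, with a median of -0.33. DSP (chr6:7541575-7586717, plus strand), desmoplakin, did not pass the test, at 329, 325 and 365 CPM in MCF10AT1 and 352, 333 and 347 CPM in MCF10Ca1a, with overlapping ranges. DSG3 (chr18:31447795-31478702, plus strand), a desmoglein, was lower, with a change of -0.20 on the count scale and did not pass the test on the log2(TPM + 1) scale. DSC3 (chr18:30990008-31042815, minus strand), a basal desmocollin, fell by 1.72.

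Cadherins moved apart. CDH1 (chr16:68737225-68835548, plus strand), E-cadherin, was read at 145, 143 and 140.4 CPM in MCF10AT1 and 752, 738 and 777 CPM in MCF10Ca1a, a rise of 2.40 (SE 0.037, adjusted p = 5.28e-14 by edgeR's quasi-likelihood test). CDH2 (chr18:27950966-28177446, minus strand), N-cadherin, was lower, at 13.7, 12.5 and 13 CPM in MCF10AT1 and 3.80, 4.42 and 4.02 CPM in MCF10Ca1a. CDH4 (chr20:61252426-61940617, plus strand), R-cadherin, fell most, with a change of -4.17, CDH13 changed by -3.51, and CDH3, P-cadherin, rose by 1.59. The catenins CTNNB1, CTNND1 and CTNNA1 had changes of -0.38, 0.11 and -0.067, the last of which did not pass the test.

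Matrix attachment genes changed in both directions. Of the 9 hemidesmosome and laminin-332 genes, 5 rose and 4 fell, and their median of 0.24 was -0.04 when centred within length groups. LAMB3 (chr1:209614870-209652466, minus strand), the laminin beta3 chain, was read at 723, 727 and 743 CPM in MCF10AT1 and 2791, 2714 and 2904 CPM in MCF10Ca1a, a rise of 1.94. ITGB4 (chr17:75721328-75757818, plus strand), the hemidesmosome integrin chain, rose by 0.96, while its partner ITGA6 (chr2:172427354-172506282, plus strand) was lower, at 1259, 1248 and 1233 CPM in MCF10AT1 and 521, 527 and 541 CPM in MCF10Ca1a. The other members that fell were COL17A1, a hemidesmosome collagen, DST, a plakin, and CD151, a tetraspanin, with changes of -1.02, -1.03 and -0.86. LAMA3 (chr18:23689443-23956222, plus strand) was higher by 0.24, a call lost when all 9 libraries were fitted together. Among the 12 other integrin chains, 8 rose and 3 fell, with a median of 0.58. ITGA5 (chr12:54395261-54419460, minus strand), the fibronectin receptor chain, was read at 140.1, 137 and 137 CPM in MCF10AT1 and 471, 457 and 493 CPM in MCF10Ca1a, and ITGB1 (chr10:32900319-33005792, minus strand), its partner, at 1171, 1164 and 1041 CPM in MCF10AT1 and 1542, 1594 and 1559 CPM in MCF10Ca1a. Both were higher in every MCF10Ca1a library. ITGB3 (chr17:47253846-47311816, plus strand) rose most, by 3.88, at levels of at most 1.77 CPM, and ITGA10 (chr1:145891208-145910189, minus strand) fell most, with a change of -1.29.

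Epithelial regulators and luminal markers were more often higher than lower, and basal markers more often lower than higher, and the difference between these lists was not tested. Of the 20 regulators in the GRHL, OVOL and ESRP list, 13 rose, 6 fell, and the median was 0.74. OVOL1 (chr11:65787022-65797219, plus strand), an epithelial zinc finger repressor, rose most, from 0.340, 0.446 and 0.351 CPM in MCF10AT1 to 3.10, 2.94 and 3.93 CPM in MCF10Ca1a, and KLF4 (chr9:107484852-107490482, minus strand), a differentiation factor, fell most, with a change of -1.42. GRHL2, a grainyhead factor, changed by -0.84 and its relative GRHL1 rose by 2.87, while ESRP1 (chr8:94641074-94707466, plus strand), an epithelial splicing regulator, was lower, with a change of -0.25, not called on the unfiltered TPM scale. Luminal markers had 10 of 16 higher and 4 lower, with a median of 0.77. ESR1 (chr6:151656691-152129619, plus strand), the estrogen receptor, was read at 2.82, 2.74 and 2.54 CPM in MCF10AT1 and 6.57, 6.25 and 5.27 CPM in MCF10Ca1a, and GATA3 (chr10:8045378-8075203, plus strand), a luminal factor, was higher by 0.18, a call lost when replicate 2 of MCF10AT1 or replicate 3 of MCF10Ca1a was left out, and in 3 other fits. MUC1 (chr1:155185824-155192916, minus strand), a surface mucin, fell most, from 56.4, 55.7 and 59.8 CPM in MCF10AT1 to 1.13, 1.47 and 1.40 CPM in MCF10Ca1a. Basal markers had 8 of 20 higher and 11 lower, with a median of -0.32 on the count scale that was above 0 on the TPM scale, at 0.14 on log2(TPM + 1) and 0.11 on log2(TPM + 0.1). TP63 (chr3:189631416-189897279, plus strand) was higher, at 49.9, 48.3 and 46.9 CPM in MCF10AT1 and 77.3, 81.3 and 78.7 CPM in MCF10Ca1a, and NGFR (chr17:49495293-49515017, plus strand), the low-affinity nerve growth factor receptor, rose most, by 2.73.

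Mesenchymal and matrix genes were mostly lower in MCF10Ca1a. Of 25 tested, 20 fell, 17 by at least 2-fold, and 4 rose, with a median of -1.82. VIM (chr10:17228259-17237593, plus strand), vimentin, was read at 521, 532 and 509 CPM in MCF10AT1 and 136, 137 and 141 CPM in MCF10Ca1a, and FN1 (chr2:215360440-215436172, minus strand), fibronectin, at 100.1, 107 and 115 CPM in MCF10AT1 and 31.6, 29.5 and 30.2 CPM in MCF10Ca1a. The libraries of the lines did not overlap for either. DCN (chr12:91140484-91183123, minus strand), the proteoglycan decorin, fell most by the ratio of CPM, from 29.8, 30.8 and 30.2 CPM in MCF10AT1 to 0.225, 0.0300 and 0.256 CPM in MCF10Ca1a. POSTN, periostin, had counts of 487, 472 and 419 (MCF10AT1) and of 0, 0 and 0 (MCF10Ca1a), at least 80.4-fold lower. VCAN, versican, changed by -6.50, and the transcription factors TWIST1, ZEB1 and SNAI2 by -2.41, -2.14 and -0.99. SNAI1, a related factor, rose by 2.54, and SPARC (chr5:151661096-151687165, minus strand), a matrix-binding glycoprotein, rose most, by 2.76, with levels of 0.754, 0.639 and 0.910 CPM in MCF10AT1 and 4.96, 4.78 and 5.84 CPM in MCF10Ca1a and means of 0.281 and 5.50 TPM. DCN also stands in the fibroblast marker list, of which COL1A1 was read at 203 to 228 counts in MCF10AT1 and 169 to 195 in MCF10Ca1a. Its other markers had at most 19 counts in any library, with 0 throughout for COL1A2.

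Collagen genes, which form the fibres and sheets of matrix, were mixed. Of 18 tested, 11 rose and 6 fell, with a median of 0.42 that was 0.14 when centred within length groups. COL1A1 (chr17:50183289-50201632, minus strand), of fibrillar collagen, was read at 3.00, 3.15 and 3.64 CPM in MCF10AT1 and 4.85, 5.08 and 5.55 CPM in MCF10Ca1a, and COL4A1 (chr13:110148963-110307233, minus strand), of basement membrane, at 78.1, 78.6 and 84.3 CPM in MCF10AT1 and 101, 103 and 103 CPM in MCF10Ca1a. COL9A3 (chr20:62816244-62841159, plus strand) rose most, by 4.19, and COL6A1 (chr21:45981737-46005050, plus strand) fell most, with a change of -3.89, while COL6A3 of the same collagen rose by 2.82.

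Matrix proteases showed no shared direction. Of 25 tested metalloproteinases, adamalysins and inhibitors, 12 rose, 9 fell and 4 were not called, with a median of 0.21 that was 0.04 when centred within length groups. MMP2 (chr16:55389700-55506691, plus strand), a gelatinase, fell most, from 7.94, 8.28 and 8 CPM in MCF10AT1 to 0.366, 0.451 and 0.627 CPM in MCF10Ca1a. MMP1 (chr11:102789920-102798160, minus strand), a collagenase, was at 0.192, 0.208 and 0.239 CPM in MCF10AT1 and 0.564, 0.451 and 0.228 CPM in MCF10Ca1a, with overlapping ranges, and its adjusted p of 0.0245 was lost in 4 of 6 fits that left a library out. MMP13 (chr11:102942995-102955734, minus strand), another collagenase, was at least 14.6-fold higher, from counts of 3, 0 and 2 (MCF10AT1) and of 22, 24 and 23 (MCF10Ca1a), and MMP14, the main membrane-bound member, was lower, with a change of -0.20. Among serpins and the plasminogen system, 7 of 17 rose and 9 fell, with a median of -0.13 that was 0.08 when centred within length groups. PLAU (chr10:73909177-73917497, plus strand), urokinase, was read at 30.7, 30.1 and 27.5 CPM in MCF10AT1 and 85.0, 88.5 and 93.1 CPM in MCF10Ca1a, and PLAT (chr8:42175233-42207724, minus strand), tissue plasminogen activator, rose most, by 3.06. SERPINB5 (chr18:63476761-63505085, plus strand), maspin, was lower, at 773, 800.2 and 746 CPM in MCF10AT1 and 314, 316 and 323 CPM in MCF10Ca1a, and SERPINB13 (chr18:63586989-63604639, plus strand) fell most, with a change of -3.25.

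Actin-binding and contractile genes had a few deep falls and many small changes. Of 25 tested, 13 fell, 6 by at least 2-fold, and 9 rose, none by 2-fold; the median was -0.13, -0.27 when centred within length groups and above 0 on the TPM scale, at 0.12 on log2(TPM + 1). FLNA (chrX:154348524-154374638, minus strand), filamin A, the main actin crosslinker, was read at 931, 962 and 1047 CPM in MCF10AT1 and 48.0, 44.7 and 45.4 CPM in MCF10Ca1a, a change of -4.41. FLNA and EMD are neighbours on chromosome X. MYL9 (chr20:36541484-36551447, plus strand), a myosin light chain, had counts of 44, 50 and 33 (MCF10AT1) and of 0, 0 and 1 (MCF10Ca1a), at least 7.38-fold lower. CAV1, caveolin-1, changed by -2.06, and ACTN1, alpha-actinin-1, by -0.13.

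Growth factor genes of the ERBB family changed in opposite directions. Of 13 receptors and ligands tested, 7 rose and 5 fell, with a median of 0.45. EGFR (chr7:55019021-55211628, plus strand), the receptor for EGF, did not pass the test, at 300.2, 289 and 328 CPM in MCF10AT1 and 314, 295 and 306 CPM in MCF10Ca1a, with overlapping ranges. ERBB2 (chr17:39687914-39730426, plus strand), a co-receptor, was read at 40.1, 39.5 and 42.0 CPM in MCF10AT1 and 98.6, 93.2 and 96.0 CPM in MCF10Ca1a, a rise of 1.24. Of the ligands, HBEGF (chr5:140332843-140346631, minus strand) rose most, from 30.2, 29.3 and 28.2 CPM in MCF10AT1 to 189, 188 and 194 CPM in MCF10Ca1a, and EREG and TGFA rose by 2.41 and 1.38. AREG changed by -2.36, from 1844, 1932 and 1847 CPM in MCF10AT1 to 358, 371 and 365 CPM in MCF10Ca1a, and the neuregulin NRG1 (chr8:31639386-32767959, plus strand) changed by -2.56, with mean levels of 5.02 and 1.90 TPM. Scaled for length, AREG was the most abundant ligand in both lines, with mean levels of 2313 TPM in MCF10AT1 and 527 TPM in MCF10Ca1a.

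MAP kinase feedback and immediate early genes rose in 16 cases and fell in 10 of 28, with a median of 0.23 that was 0.12 when centred within length groups. DUSP6 (chr12:89347232-89353271, minus strand), the phosphatase that switches ERK off, was read at 282, 281 and 278 CPM in MCF10AT1 and 191, 195 and 196 CPM in MCF10Ca1a, and FOS (chr14:75278774-75282230, plus strand), an AP-1 subunit, at 282, 278 and 281 CPM in MCF10AT1 and 70.4, 71.0 and 73.0 CPM in MCF10Ca1a. Both were lower in every MCF10Ca1a library, with changes of -0.53 and -1.97. ATF3 (chr1:212565334-212620777, plus strand), a stress-induced factor, rose most, by 2.32, and FOSL1, an AP-1 subunit, did not pass the test, with a change of -0.013. The AP-1 letters TGANTCA were in 2 of 21 list promoters matched (9.52%) against 7.76% of all and 5.04% of those of tested genes.

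TGF-beta and BMP genes changed in both directions. Of 32 tested, 12 rose and 17 fell, with a median of -0.37 on the count scale that was above 0 on the TPM scale, at 0.037 on log2(TPM + 1) and 0.063 on log2(TPM + 0.1). TGFB1 (chr19:41301587-41353911, minus strand) was lower, at 21.6, 22.8 and 22 CPM in MCF10AT1 and 5.66, 6.07 and 6.86 CPM in MCF10Ca1a, and TGFB2 (chr1:218346235-218444619, plus strand), an isoform of the same ligand, was higher, at 16.4, 15.8 and 15.3 CPM in MCF10AT1 and 59.1, 58.2 and 59.8 CPM in MCF10Ca1a. TGFBR3 (chr1:91680343-91906335, minus strand), the co-receptor betaglycan, had counts of 245, 215 and 226 (MCF10AT1) and of 0, 0 and 1 (MCF10Ca1a), at least 40.1-fold lower. The target gene ID2 (chr2:8678845-8684453, plus strand) rose most, by 3.50, and ID1 and ID3 rose by 1.25 and 1.85.

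Of 28 WNT genes tested, 8 rose and 15 fell, with a median of -0.39. WNT5A (chr3:55465715-55490539, minus strand), a non-canonical ligand, fell most, from 7.92, 8.59 and 8.20 CPM in MCF10AT1 to 0.0845, 0.270 and 0.114 CPM in MCF10Ca1a, and WNT7A (chr3:13816258-13880121, minus strand) rose most, by 1.91. LEF1, a WNT transcription factor, fell by 2.18. AXIN2, a common target of the pathway, did not reach the count minimum.

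NOTCH genes had 11 rises and 8 falls among 22, with a median of 0.12. NOTCH1 (chr9:136494433-136545786, minus strand) was lower, at 91.3, 93.2 and 109 CPM in MCF10AT1 and 64.6, 58.4 and 63.7 CPM in MCF10Ca1a, and its ligand JAG1 (chr20:10637684-10673999, minus strand) was higher, at 122, 116 and 118 CPM in MCF10AT1 and 234, 232 and 239 CPM in MCF10Ca1a. NOTCH3 (chr19:15159038-15200981, minus strand) rose most, by 2.26, and the target HES2 (chr1:6412418-6424670, minus strand) fell most, with a change of -1.60, and its mean levels were 9.15 and 6.13 TPM.

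YAP and TEAD genes, which respond to cell density and tension, had 14 rises and 10 falls among 27, and a median of 0.29 that was 0.04 when centred within length groups. AMOTL2 (chr3:134355874-134375479, minus strand), a feedback target, was read at 52.3, 54.7 and 54.0 CPM in MCF10AT1 and 140.5, 135 and 145 CPM in MCF10Ca1a, and GADD45B (chr19:2476122-2478259, plus strand) rose most, by 2.07. TEAD2 (chr19:49340595-49362457, minus strand), a DNA-binding partner of YAP, fell most, with a change of -3.29. CCN2 and CCN1, other targets held in the mesenchymal list, changed by -2.18 and -0.72.

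Guidance receptors and ligands were mixed. Of 36 ephrin, semaphorin and plexin genes tested, 18 rose and 14 fell, with a median of 0.18 that was -0.03 when centred within length groups. EPHA2 (chr1:16124337-16156087, minus strand), an ephrin receptor of epithelium, was read at 180.1, 181 and 180.1 CPM in MCF10AT1 and 1392, 1350.5 and 1435 CPM in MCF10Ca1a, a rise of 2.95 (SE 0.038). SEMA5A (chr5:9035026-9546075, minus strand) rose most, by 4.09, and SEMA3C (chr7:80742538-80922359, minus strand) did not pass the test, at 98.5, 102 and 95.2 CPM in MCF10AT1 and 97.0, 102 and 101 CPM in MCF10Ca1a. EPHB6 (chr7:142855061-142871094, plus strand), a kinase-dead receptor, was lower, with a change of -4.44, but its call was lost with length-scaled counts and on the TPM scale.

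**Figure D4:**
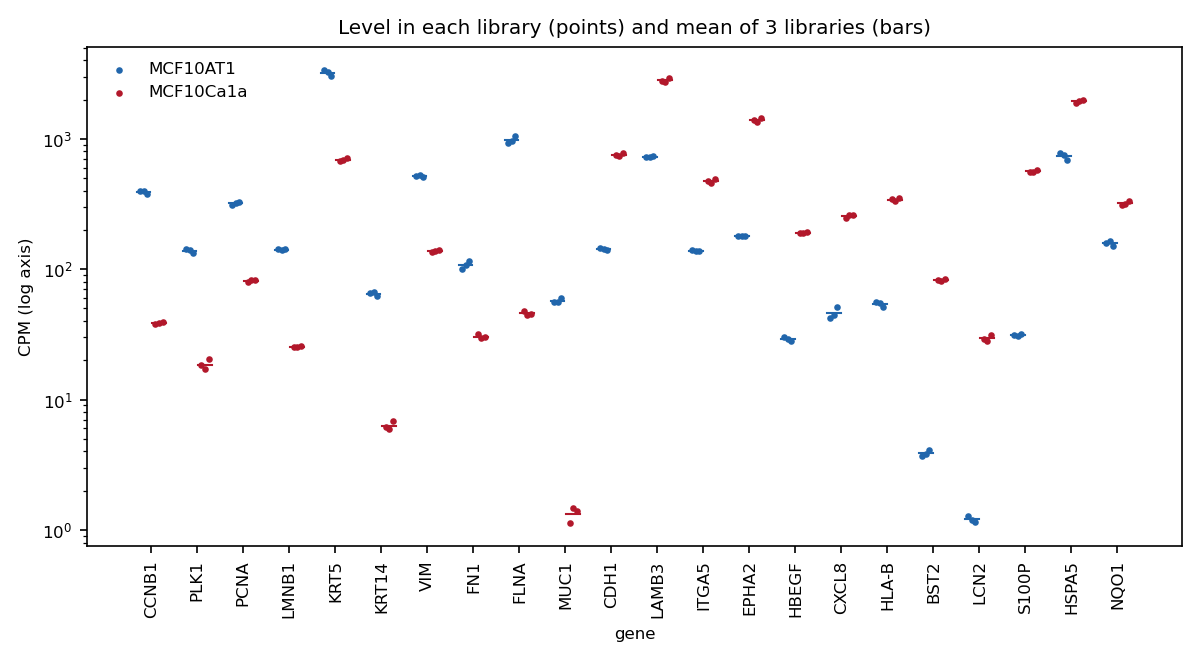
CPM on a log axis of 22 named genes in each of the 3 MCF10AT1 libraries (blue points) and 3 MCF10Ca1a libraries (red points), with the mean of each line as a bar. No gene shown has overlapping lines. The cell cycle, basal keratin and mesenchymal genes at the left are higher in MCF10AT1, and CDH1 and the genes to its right are higher in MCF10Ca1a.

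Interferon-stimulated genes were higher in most cases. Of 34 tested, 23 rose, 16 by at least 2-fold, and 7 fell, with a median of 0.84 against -0.03 over all genes. Letters of the interferon-stimulated response element type, GAAA, any 2 bases and GAAA, were found on either strand in 18 of the 26 promoters matched (69.2%) against 3.65% of all promoters and 2.89% of those of tested genes. Of those 18 genes 12 rose and 5 fell, and of the 8 without the motif 7 rose and none fell. The 120 bases before the start of ISG15 (chr1:1013377-1013496, plus strand), which rose, and EPSTI1 (chr13:42992242-42992361, minus strand), which fell, are shown because both hold the motif, in capitals, yet changed in opposite directions. The ISG15 stretch holds overlapping matches.
ISG15: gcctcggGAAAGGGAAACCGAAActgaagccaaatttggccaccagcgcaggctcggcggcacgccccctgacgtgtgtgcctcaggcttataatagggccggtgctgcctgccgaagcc
EPSTI1: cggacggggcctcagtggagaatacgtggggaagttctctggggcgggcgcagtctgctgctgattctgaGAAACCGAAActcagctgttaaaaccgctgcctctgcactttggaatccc
ISG15 (chr1:1001138-1014540, plus strand), a ubiquitin-like antiviral protein, was read at 1.32, 1.8 and 1.28 CPM in MCF10AT1 and 15.8, 15.9 and 15.2 CPM in MCF10Ca1a, a rise of 3.41. BST2 (chr19:17402939-17405648, minus strand), the tetherin that holds virions at the membrane, rose most, from 3.70, 3.85 and 4.07 CPM in MCF10AT1 to 82.6, 81.2 and 84.4 CPM in MCF10Ca1a. IFIT1 (chr10:89392546-89406486, plus strand) was higher by 0.54, with an adjusted p of 0.0219 by edgeR's quasi-likelihood test that was lost in 3 of 6 fits that left a library out. IFITM1, a membrane-bound antiviral protein, rose by 3.07, while its neighbour IFITM2 fell by 5.09. IFITM1, IFITM2 and IFITM3 are close copies, so reads may have been divided between them. EPSTI1 fell by 4.93, and MX1, an antiviral GTPase, did not pass the test, with a change of 0.005.

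Antigen presentation genes of HLA class I rose, while class II genes were divided. Of 19 tested, 15 rose and 3 fell, with a median of 1.04. HLA-B (chr6:31269491-31357188, minus strand) was read at 55.8, 55.5 and 51.2 CPM in MCF10AT1 and 344, 334 and 349 CPM in MCF10Ca1a. The peptide transporter TAP1 rose by 1.68 and the immunoproteasome subunit PSMB9 by 1.53. B2M (chr15:44711487-44718877, plus strand), the shared light chain, was higher by only 0.14, a call lost without MCF10AT1 replicate 1, with all 9 libraries in the fit and with no filter on low counts. The class II gene HLA-DPB1 (chr6:33075926-33087201, plus strand) had counts of 49, 60 and 42 (MCF10AT1) and of 0, 1 and 1 (MCF10Ca1a), a ratio of mean CPM in MCF10AT1 to that in MCF10Ca1a of 8.79 with the floor of 3 counts. HLA-DPA1, which encodes its partner chain, and the invariant chain CD74 changed by -2.12 and -2.89, and HLA-DMA, a class II peptide editor, rose by 1.04. HLA genes are highly variable, and their counts depend on how the cells' alleles match the reference.

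Cytokines and chemokines had the highest median of the 44 lists. Of 24 tested, 16 rose, 15 by at least 2-fold, and 6 fell, with a median of 1.86. CXCL8 (chr4:73740506-73743716, plus strand), the neutrophil chemoattractant interleukin-8, was read at 42.6, 44.8 and 51.5 CPM in MCF10AT1 and 249, 260.4 and 261 CPM in MCF10Ca1a. CCL20, a chemokine for dendritic and Th17 cells, rose by 3.91, from 9.82, 9.56 and 11.1 CPM in MCF10AT1 to 149, 155 and 154 CPM in MCF10Ca1a. IL1B, interleukin-1 beta, rose by 2.93 and its antagonist IL1RN (chr2:113107214-113134016, plus strand) fell most, with a change of -3.37. CSF3 (chr17:40015361-40017813, plus strand), which stimulates neutrophil production, rose most, from 0.355, 0.282 and 0.447 CPM in MCF10AT1 to 12.0, 11.1 and 11.1 CPM in MCF10Ca1a. IL6 (chr7:22725884-22732002, plus strand), a broad inflammatory cytokine, was lower, at 3.80, 3.55 and 3.93 CPM in MCF10AT1 and 1.52, 0.961 and 1.68 CPM in MCF10Ca1a.

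Secreted mucins and antimicrobial proteins moved widely in both directions. Of 23 tested, 14 rose and 8 fell, 11 and 6 at least 2-fold, with a median of 0.99. LCN2 (chr9:128149071-128153455, plus strand), an iron-binding defence protein, was read at 1.29, 1.19 and 1.15 CPM in MCF10AT1 and 29.2, 27.9 and 31.4 CPM in MCF10Ca1a, and MUC5B (chr11:1223066-1262172, plus strand), a gel-forming mucin, had counts of 0, 2 and 1 (MCF10AT1) and of 136, 172 and 188 (MCF10Ca1a), at least 105-fold higher. Complement C3 rose by 2.94, from 180.4, 177 and 176 CPM in MCF10AT1 to 1372, 1318 and 1408 CPM in MCF10Ca1a, and the elastase inhibitor PI3 by 4.08. WFDC2 (chr20:45469706-45481532, plus strand) was not read in any MCF10Ca1a library, with counts of 291, 256 and 248 (MCF10AT1) and of 0, 0 and 0 (MCF10Ca1a), at least 46.4-fold lower, and the kallikrein KLK7 was at least 28.5-fold lower.

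S100 and annexin genes had 9 rises and 13 falls among 24, and the median of -0.19 was 0.04 when centred within length groups and 0.088 on log2(TPM + 1). S100P (chr4:6693069-6697170, plus strand), a calcium-binding protein, was read at 31.2, 30.9 and 32.1 CPM in MCF10AT1 and 559, 559 and 578 CPM in MCF10Ca1a, a rise of 4.17 (SE 0.039). S100A8 (chr1:153390032-153391188, minus strand) and ANXA1 (chr9:73151757-73170393, plus strand) did not pass the test, with changes of 0.30 and 0.055. ANXA6 (chr5:151100712-151157882, minus strand) fell most, with a change of -2.47. Among tetraspanins and connexins 10 of 26 rose and 14 fell. The gap junction genes split: GJA1 (chr6:121435577-121449727, plus strand), connexin 43, was read at 4.38, 4.01 and 4.05 CPM in MCF10AT1 and 34.3, 31.6 and 33.6 CPM in MCF10Ca1a, and GJB2 (chr13:20187463-20193010, minus strand), connexin 26, at 44.8, 43.0 and 43.4 CPM in MCF10AT1 and 0.648, 0.420 and 0.684 CPM in MCF10Ca1a. CD9 (chr12:6199715-6238271, plus strand), a broadly expressed tetraspanin, was lower, with a change of -0.59, and TSPAN12 (chr7:120787320-120858402, minus strand) was at least 34.0-fold higher.

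Sterol genes were called higher and lower in equal number, but at least 2-fold changes were mostly rises, the largest of them among exporters. Of 28 tested, 14 rose and 14 fell, with a median of -0.02 that was -0.07 when centred within length groups. At least 2-fold, 8 rose (28.6%) and 1 fell (3.57%), against 18.0% and 19.3% over all genes tested. ABCA1 (chr9:104781002-104928237, minus strand), the cholesterol exporter, rose most, from 0.296, 0.164 and 0.207 CPM in MCF10AT1 to 17.4, 16.7 and 18.5 CPM in MCF10Ca1a, and its relative ABCG1 rose by 3.41. ACAT2 (chr6:159760328-159779055, plus strand), which makes the acetoacetyl-CoA that starts the pathway, fell most, with a change of -1.40.

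Fatty acid synthesis genes had 12 rises and 7 falls among 20, with a median of 0.25 that was 0.13 when centred within length groups. FASN (chr17:82078333-82098332, minus strand), fatty acid synthase, was read at 995, 1010.0 and 1138 CPM in MCF10AT1 and 1902, 1719 and 1856 CPM in MCF10Ca1a, and SCD (chr10:100347124-100364834, plus strand), the stearoyl-CoA desaturase, at 2347, 2312 and 2285 CPM in MCF10AT1 and 2898, 2912 and 2965 CPM in MCF10Ca1a. ACSL5 (chr10:112374018-112428380, plus strand), an acyl-CoA ligase, rose most, by 2.50, and ACACB (chr12:109116595-109268226, plus strand), an acetyl-CoA carboxylase, was at least 8.40-fold lower.

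Sugar metabolism genes changed in both directions, at shares near the background. Of 30 tested, 14 rose and 13 fell, with a median of 0.13. HK2 (chr2:74833981-74893359, plus strand), hexokinase, which opens glycolysis, was higher, at 67.5, 67.2 and 69.0 CPM in MCF10AT1 and 147, 143 and 151 CPM in MCF10Ca1a. LDHA (chr11:18394388-18408425, plus strand), lactate dehydrogenase, which closes it, was lower, at 2395, 2403 and 2175 CPM in MCF10AT1 and 1003, 1012 and 1049 CPM in MCF10Ca1a, and PGK1, a middle step, fell by 1.06. ALDOC (chr17:28573115-28577264, minus strand), an aldolase, rose most, by 2.80. SLC2A3 (chr12:7919230-7936275, minus strand), the glucose transporter GLUT3, had counts of 245, 247 and 225 (MCF10AT1) and of 0, 0 and 1 (MCF10Ca1a), at least 41.9-fold lower, while SLC2A1, GLUT1, rose by 1.05. The letters CACGTG were in 3 of 27 promoters matched (11.1%) against 7.43% of all and 10.0% of those of tested genes.

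Hypoxia response genes rose in 15 cases and fell in 6 of 22, with a median of 0.52. CA9 (chr9:35673856-35681159, plus strand), a carbonic anhydrase, was read at 0.769, 0.728 and 0.702 CPM in MCF10AT1 and 5.66, 5.17 and 5.70 CPM in MCF10Ca1a, and VEGFA (chr6:43770184-43786487, plus strand), the angiogenic factor, at 112, 108 and 119 CPM in MCF10AT1 and 272, 269 and 245 CPM in MCF10Ca1a. HIF1A, an oxygen-regulated transcription factor subunit, did not pass the test, with a change of -0.08. ANGPTL4, already described, fell most.

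Antioxidant targets of NRF2 were higher as a group. Of 25 tested, 20 rose, 12 by at least 2-fold, and 5 fell, none by 2-fold, with a median of 0.96. NQO1 (chr16:69706996-69726951, minus strand), a quinone reductase, was read at 159, 165 and 151 CPM in MCF10AT1 and 312, 315 and 333 CPM in MCF10Ca1a, and GCLM (chr1:93885205-93909456, minus strand), a glutathione synthesis subunit, at 44.3, 44.7 and 43.0 CPM in MCF10AT1 and 54.4, 56.3 and 51.4 CPM in MCF10Ca1a. FTL, the ferritin light chain, rose by 2.51, from 166, 170.2 and 163 CPM in MCF10AT1 to 938, 923 and 985 CPM in MCF10Ca1a, and HMOX1, heme oxygenase, by 2.76. GCLC, the catalytic partner of GCLM, changed by -0.35, and TXN, thioredoxin, by -0.83. The antioxidant response letters TGACNNNGC were in 3 of 17 promoters matched (17.6%), against 13.6% of all and 15.2% of those of tested genes.

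Genes of the unfolded protein response and endoplasmic reticulum chaperones rose in 23 of 26 cases, 8 by at least 2-fold, and fell in 2, with a median of 0.89. HSPA5 (chr9:125234853-125241330, minus strand), the chaperone BiP, was read at 776, 756 and 689 CPM in MCF10AT1 and 1889, 1939 and 1979.9 CPM in MCF10Ca1a, a rise of 1.39. XBP1 (chr22:28794555-28800597, minus strand), the spliced response factor, was higher, at 66.4, 64.4 and 60.7 CPM in MCF10AT1 and 119, 118 and 116 CPM in MCF10Ca1a, and HERPUD1 (chr16:56932048-56944863, plus strand), of protein degradation, rose most, by 1.93.

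The ATF4 and amino acid stress genes had 14 rises and 9 falls among 27, with a median of 0.32. ATF4 (chr22:39519695-39522685, plus strand) itself was lower, at 407, 409.6 and 389 CPM in MCF10AT1 and 287, 279 and 289 CPM in MCF10Ca1a. ASNS (chr7:97852118-97872542, minus strand), asparagine synthetase, was higher, at 42.3, 41.5 and 41.0 CPM in MCF10AT1 and 137, 148 and 149 CPM in MCF10Ca1a, and DDIT3 (chr12:57516588-57521737, minus strand), the factor CHOP, rose most, by 3.19. SLC1A4 (chr2:64988477-65023865, plus strand), an amino acid transporter, fell most, with a change of -4.04.

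Complex I subunits of the respiratory chain were mildly lower. Of 37 tested, 26 fell, 4 by at least 2-fold, and 7 rose, with a median of -0.32. Their transcripts are short, and centred within length groups the median was -0.10, so this difference moved with length, whose part was not tested. NDUFA1 (chrX:119871487-119876662, plus strand), an accessory subunit, was read at 92.7, 91.3 and 93.2 CPM in MCF10AT1 and 43.3, 43.3 and 45.0 CPM in MCF10Ca1a, and NDUFS1 (chr2:206114817-206159603, minus strand), a core subunit, at 174, 177 and 154 CPM in MCF10AT1 and 197, 205 and 207 CPM in MCF10Ca1a. NDUFA5 (chr7:123536997-123558255, minus strand) fell most, with a change of -1.41.

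Targets of the p53 tumour suppressor were lower in most cases. Of 25 tested, 19 fell, 10 by at least 2-fold, and 4 rose, with a median of -0.81. MDM2 (chr12:68808176-68850686, plus strand), the ligase that degrades p53, was read at 218, 218 and 214 CPM in MCF10AT1 and 144, 145 and 139.6 CPM in MCF10Ca1a, and BBC3 (chr19:47220822-47232766, minus strand), the apoptosis protein PUMA, at 4.88, 5.89 and 4.71 CPM in MCF10AT1 and 12.6, 9.76 and 10.3 CPM in MCF10Ca1a. EDA2R (chrX:66595637-66639298, minus strand), a TNF family receptor, had counts of 766, 774 and 730 (MCF10AT1) and of 1, 0 and 0 (MCF10Ca1a), at least 133-fold lower. SESN1, a stress-induced sestrin, changed by -3.26, and DDB2, a damage sensor, by -2.38, while GADD45A (chr1:67685061-67688338, plus strand), a growth arrest gene, rose most, by 1.87.

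Polycomb genes, which silence developmental genes, changed in both directions. Of 32 tested, 16 rose and 14 fell, 6 and 2 of them at least 2-fold, with a median of 0.05 that was -0.06 when centred within length groups. EZH2 (chr7:148807383-148884321, minus strand), the methyltransferase, was lower, at 53.6, 54.0 and 53.9 CPM in MCF10AT1 and 25.2, 25.2 and 27.1 CPM in MCF10Ca1a, and BMI1 (chr10:22321211-22331484, plus strand), a ring finger subunit, at 79.3, 79.5 and 82.5 CPM in MCF10AT1 and 43.0, 42.3 and 39.6 CPM in MCF10Ca1a. CBX7 (chr22:39120167-39152674, minus strand) rose most, by 2.12, and PHF19 (chr9:120855652-120894896, minus strand) fell most, with a change of -1.22. EZH1, the paralog of EZH2, rose by 1.36. Of 17 DNA methylation genes, 11 fell and 4 rose, with a median of -0.28. DNMT1 (chr19:10133345-10231286, minus strand), the maintenance enzyme, was lower, at 129, 128 and 134 CPM in MCF10AT1 and 84.0, 85.5 and 88.0 CPM in MCF10Ca1a, and DNMT3B (chr20:32762385-32809356, plus strand), a de novo enzyme, was at least 23.6-fold lower, from counts of 133, 136 and 134 (MCF10AT1) and of 2, 3 and 3 (MCF10Ca1a). TET1 (chr10:68560656-68694482, plus strand), a demethylase, fell by 1.77 at levels of at most 1.67 CPM, and TET3 (chr2:73986404-74108176, plus strand) rose most, by 1.55.

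Some genes were read in 1 line only. With a floor of at most 3 counts in each library of one line and a mean of 100 or more counts in the other, 80 genes were at the floor in MCF10Ca1a, of 12329 with such a mean in MCF10AT1 (0.649%). In the opposite direction 11 genes were at the floor in MCF10AT1, of 11329 (0.0971%). Depth favours the first count, and with MCF10AT1 thinned to the MCF10Ca1a depth, a comparison added after the data were seen, the counts were 47 and 20. In MCF10A, 74 of the 80 genes and 4 of the 11 were above the floor. Of 413 zinc finger genes with a mean of 100 or more counts in MCF10AT1, 11 (2.66%) were at the floor in MCF10Ca1a, against 69 of 11916 other genes (0.579%). ZNF22, a zinc finger gene, had counts of 1635, 1609 and 1461 (MCF10AT1) and of 0, 0 and 0 (MCF10Ca1a), at least 275-fold lower, and ZNF44 had counts of 672, 639 and 669 (MCF10AT1) and of 0, 0 and 0 (MCF10Ca1a). None of 349 zinc finger genes was at the floor in MCF10AT1.

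Families defined by a shared symbol stem also varied. Of 29 KIF genes, which encode kinesin motors, 22 were called lower and 5 higher, with the lowest family median, -1.14. Genes for the large and small mitochondrial ribosome subunits followed, with medians of -0.59 for the 49 MRPL and -0.46 for the 29 MRPS genes, but these were -0.37 and -0.26 when centred within length groups. SNHG host genes of small nucleolar RNAs and METTL methyltransferase-like genes had medians of -0.45 and -0.44, and -0.23 and -0.29 when centred in the same way. At the other end stood SEC genes of vesicle transport (0.60, 26 genes), GPR receptors (0.49, 25 genes), and the ZC and TBC symbols (0.47 each, and 0.20 and 0.25 centred). The H stem, mostly histones, had the highest median, 0.78 over 39 genes.

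Changes were unevenly placed along the chromosomes. Genes were grouped in windows of 5 Mb by their GENCODE 29 position on GRCh38, and the 302 windows with at least 20 tested genes had medians from -1.17 to 1.0. The lowest was chromosome 9 from 85 to 90 Mb (-1.17, 21 genes), then chromosome 12 from 0 to 5 Mb (-0.99, 33 genes) and chromosome 13 from 50 to 55 Mb (-0.92, 30 genes). The fourth, chromosome 21 from 5 to 10 Mb (-0.90), rests on 25 genes of which 20 have no symbol. The highest windows were on chromosome 16, at 70 to 75 (1.0, 47 genes), 85 to 90 (0.98, 60 genes) and 80 to 85 Mb (0.96, 33 genes), followed by chromosome 5 from 0 to 5 Mb (0.87, 28 genes). CDH1 lies just before the first of these windows. With windows of 10 Mb the lowest was instead chromosome 19 from 20 to 30 Mb (-1.08, 29 genes), then chromosome 9 from 80 to 90 Mb (-1.02), while chromosome 16 from 80 to 90 Mb was highest (0.98). Chromosome 12 from 0 to 10 Mb had only -0.41. Within the chromosome 16 window at 70 to 75 Mb, 24 genes were at least 2-fold higher and 1 at least 2-fold lower, and centred within length groups its median was 0.96. By chromosome, 20 had the highest median (0.44) and 13 the lowest (-0.36). Copy number was not measured, and its part in these medians was not tested.

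**Figure D5:**
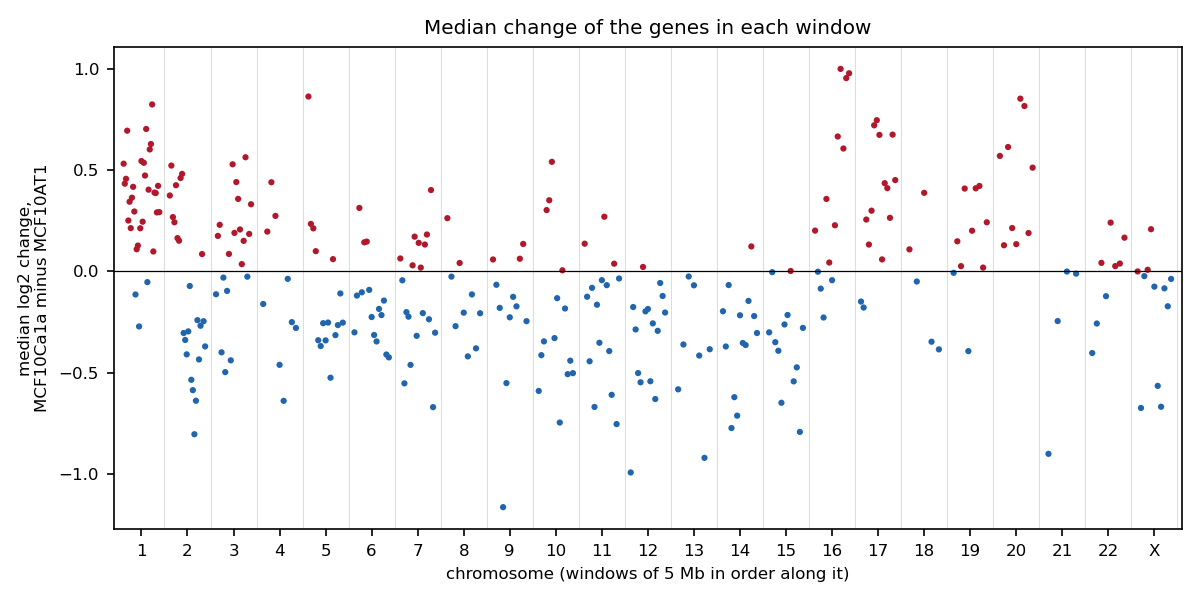
Median log2 change of MCF10Ca1a minus MCF10AT1 for the tested genes in each 5 Mb window with at least 20 of them, each point a window in order along its chromosome. Red points are above 0 and blue below. Chromosome 16 holds the highest points, up to 1.0, and the lowest point, -1.17, is on chromosome 9.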

How the data were processed

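Polyadenylated RNA of 9 cell line libraries was sequenced, and the 6 libraries of MCF10AT1 and MCF10Ca1a were compared. Per the submitters' processing notes, Salmon and the hg38 build were used, with versions not given in the sources used here. The deposited table holds estimated counts per gene, which the authors did not scale by depth, and a deposited table of TPM values made by the authors is scaled by depth and length. The estimated counts were rounded here. Genes with at least 10 counts in 3 of the 6 libraries were fitted with edgeR 4.0.16 (quasi-likelihood test, TMM factors, 6 libraries, no covariate) in R 4.3.3, with Benjamini-Hochberg adjustment over the 16728 genes. Alternatives were DESeq2 1.42.0, limma 3.58.1 on log2(TPM + 1) and log2(TPM + 0.1), other scaling factors, filters, scaled and length-scaled counts, thinned depth, all 9 libraries, a replicate block and leaving out each library. Thinned floor counts, centring within length groups and the ratio of mean TPM were chosen after seeing the data. Effective length was each line's share of counts divided by its TPM, averaged over the lines on the log scale. Library totals of 32.9M to 68.1M counts limit the precision of low genes.

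The gene lists and their members were chosen with earlier results of these data known. Of 1102 distinct members in 44 lists, 1000 were tested, 100 did not reach the count minimum and 2 were not matched. Genes printed with a position are the 8 largest rises and 8 largest falls that passed the test, whose libraries did not overlap and whose higher line averaged at least 100 counts (genes without a symbol and clone, LOC, LINC and antisense names were left out), and in each list the 2 members written first and the largest rise and fall of at least 2-fold, by the ratio of mean CPM with a floor of 3 counts. Positions are GENCODE 29 on GRCh38, matched by gene identifier. Scripts were tested on simulated data. Some members of these lists are counted but not reported here by name.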

Additional observations from a re-analysis of the deposited data

How the results depend on the processing

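The count of genes called was 13194 with DESeq2 and 13469 to 13849 when each library was left out, against 13922. At least 2-fold higher calls ranged from 2965 to 3056 and lower calls from 3180 to 3264 without single libraries, and testing against a 2-fold change (glmTreat) gave 2414 and 2544. On log2(TPM + 1) 2452 genes were at least 2-fold higher and 1310 lower (2487 and 1312 with no filter), on log2(TPM + 0.1) 3718 and 2191, and 787 and 783 called genes had the other sign. With the replicate block 13609 genes were called. Deviations of same-numbered libraries from their line means had correlations of -0.0834, -0.129 and -0.189, and those of differently numbered libraries -0.0694 to 0.183. With 3 libraries per line, such values cannot show whether libraries with the same number share a batch. With a floor of 10 counts, 170 genes were at the floor only in MCF10Ca1a and 30 only in MCF10AT1, and with MCF10AT1 thinned 47 and 20. The median of all genes tested was 0.211 on log2(TPM + 0.1) and 0.147 on log2(TPM + 1). Medians that were negative on the count scale were above 0 there, but below those of all genes tested, for actin (0.1186 and 0.1178), TGF-beta (0.06274 and 0.03704), basal (0.107 and 0.1358), S100 (0.08893 and 0.08802) and tetraspanin genes (0.06505 and 0.06192), as was the change of DSG3 (0.03487 and 0.03418), which was not called. With no filter the medians and DSG3 were as on log2(TPM + 1), and the median over the larger set of genes was 0.0228, below them. Centred within length groups, the hemidesmosome (-0.03892), S100 (0.04053), ephrin (-0.02688), serpin (0.07766) and Polycomb (-0.05895) medians changed sign. The cause was not tested. Lower depth in MCF10Ca1a limits what can be said of genes near the floor there.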

Other observations

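Histone genes were not in the lists above. Of the 39 tested genes with the symbol stem H, which also takes in a few genes that are not histones, 21 were called higher, 16 at least 2-fold, and 5 lower, 3 at least 2-fold. H2AC6, a replication-dependent H2A gene, was read at 6.18, 6.29 and 6.29 CPM in MCF10AT1 and 30.3, 32.0 and 27.7 CPM in MCF10Ca1a, a change of 2.26. In the other direction the variants H2AZ1, H2AZ2 and H2AX changed by -2.12, -2.03 and -1.52. Replication-dependent histone messages normally lack a poly(A) tail, so libraries made from polyadenylated RNA read only part of them, and all 32 mitosis genes and 33 of 35 replication genes tested fell in the same libraries. These genes were chosen after their values were seen, the part of tailing in the rise was not tested, and histone genes of a cluster are near-identical copies whose reads may have been divided between them.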
